A study of Mus musculus with 4 samples.

Results

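10 genes that mark or maintain epithelial identity were located in the DNMT3B maps of lung metastases: Ovol1, Ovol2, Grhl2, Cldn3, Cldn4, Cldn7, Esrp1, Esrp2, Cdh1 and Epcam. They were taken by name from the gene columns of both deposited lists, and they are 10 of 21631 protein-coding genes on chromosomes 1 to 19 and X in the RefSeq table. Of the 10 genes, 4 were named with a narrow region, 6 were paired with a broad island, 2 had both calls and 2 had neither.

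The study mapped DNMT3B, an enzyme that adds methyl groups to unmethylated cytosines, by chromatin immunoprecipitation and sequencing in lung metastases. The metastases came from 4T1, a mammary tumour cell line of the BALB/c mouse that forms lung colonies. There were 2 DNMT3B ChIP libraries, labelled lung 3 and lung 5, and 2 input libraries with the same lung labels, which are chromatin carried through without antibody. Both groups are 4T1 lung metastases in BALB/c, and the labels give no treatment, genotype, age or time for either. They do not say whether host lung cells were removed or whether the lung labels stand for separate mice.

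Epithelial cells hold together through adherens junctions, built on E-cadherin, and tight junctions, built on claudins. A small set of transcription factors and splicing factors keeps these genes on, and loss of that programme accompanies the epithelial-mesenchymal transition, in which tumour cells gain motility. Methylation of CpG dinucleotides at the E-cadherin promoter is a textbook example of silencing in carcinoma. The lists hold positions of DNMT3B enrichment only, so neither DNA methylation nor expression of these genes was measured here.

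Narrow enrichment had been called with MACS, giving 1705 distinct regions, and broad enrichment with SICER, giving 8242 islands. Neither list carries a read count or score, no value belongs to a library, and the depth of each library is unknown. No spread between replicates and no test over samples could be had, and counts of the epithelial genes are set beside the same count over all genes or regions.

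Narrow regions were named with 4 of the 10 epithelial genes, against 6.21% of all protein-coding genes. Islands were paired with 6 of the 10, against 17.4% of all protein-coding genes. Both calls fell on 2 of the 10, Ovol1 and Grhl2, against 2.49% of all genes. Esrp1 and Esrp2 had neither call, as did 78.8% of all genes. The 10 genes were chosen with these lists known, so these shares describe them and support nothing further. The numbers per gene are drawn in the bar plot of calls.

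**Figure D1:**
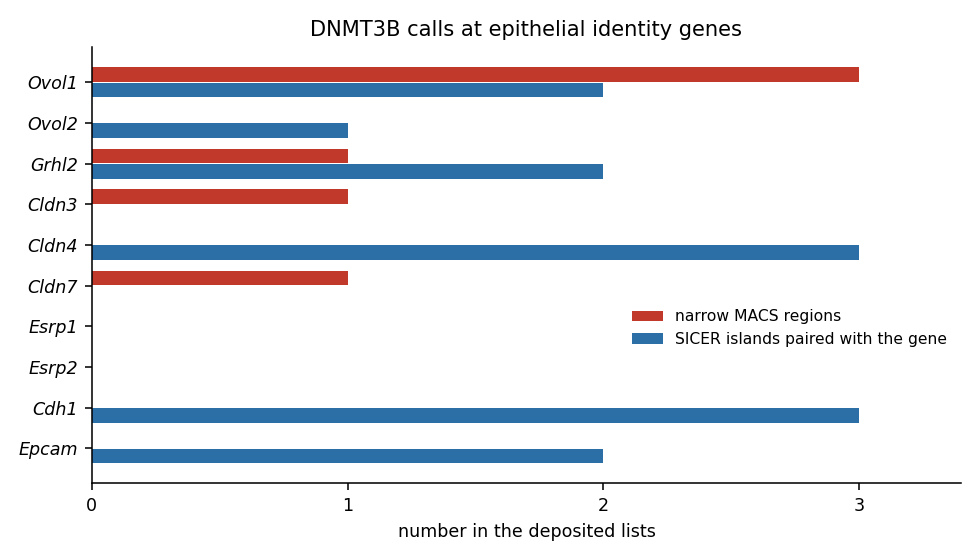
Number of distinct narrow MACS regions and of paired SICER islands (x axis, counts) for each of the 10 epithelial genes (y axis). Ovol1 has 3 narrow regions and 2 islands, Cldn4 and Cdh1 have 3 islands each with no narrow region, and Esrp1 and Esrp2 have no bar.

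Of the 3 transcription factors, Ovol1 had the most narrow regions of the 10 genes, Grhl2 had 1 and Ovol2 none. Ovol1 and Ovol2 are zinc finger repressors that hold down mesenchymal genes such as Zeb1, and Grhl2 is a grainyhead-like activator of junction genes. Ovol1, on the minus strand of chromosome 19 from 5549136 to 5560575 in the deposited positions, carried 3 narrow regions. One ran from 5560410 to 5560580 across the gene start, with 97.7% of it inside the gene. Another, from 5559930 to 5559970, lay in an intron between 605 and 645 bp after the start. The last, from 5561190 to 5561250, lay 615 to 675 bp before the start. The narrow regions of Ovol1 therefore sat on both sides of its start. Of all protein-coding genes, 0.213% were named with 3 or more narrow regions.

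All 3 narrow regions of Ovol1 lay in an island of 18.2 kb, from 5555600 to 5573799, which covered the gene start. This island ran from 13.2 kb before the start to 4.97 kb into the gene, and 97.1% of all islands were no wider. It held 5 narrow regions, of which the remaining ones were named with Ap5b1, the next gene upstream, which encodes an adaptor protein subunit. Only 3 of the 8242 islands (0.0364%) held 5 or more narrow regions, and 4.82% held any. The other Ovol1 island, 4800 bp wide, lay inside the gene from 5549800 to 5554599. Together the pair of islands covered 85.5% of the Ovol1 body. Among 3771 protein-coding genes paired with islands the median share was 16.4%, and 90.3% of them had a share no larger than that of Ovol1.

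Ovol1 differed in properties of the lists from the other 5 epithelial genes with a deposited position. Its deposited gene end equals that of the GRCm38 annotation, while those of Ovol2, Grhl2, Cldn4, Cdh1 and Epcam lay over 1 kb away, although mm10, the same assembly, is the build named in the submitters' processing notes. Of the protein-coding genes paired with islands, 251 ended no more than 1 kb from their GRCm38 end, and 49.4% of these were named with a narrow region. Of the other 3520 genes, 11.8% were. Rounding, which follows the size of the position, differed too, with narrow regions of Ovol1 given to 10 bp and that of Grhl2 to 100 bp. Lines with equal rounded positions were counted as 1 region, so numbers of regions are not alike in resolution between genes. The part of these differences in the Ovol1 result was not tested.

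Grhl2, on the plus strand of chromosome 15 from 37162790 to 37293323, carried 1 narrow region, from 37162700 to 37163100. It spanned the gene start from 90 bp before to 310 bp after, with 77.3% of it inside the gene, and its position is rounded to 100 bp. An island of 3000 bp, from 37161800 to 37164799, covered the same start and held this region. The other Grhl2 island, 2.80 kb wide, lay 114 kb into the gene, from 37276400 to 37279199. Islands thus covered little of this long gene, 3.68% of its body, and both were narrower than the median island of 4800 bp. The narrow call at the start of Grhl2 was accompanied by a short island, whereas those of Ovol1 lay in a long one.

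Ovol2, the paralogue of Ovol1, had an island but no narrow region. Its 4.00 kb island, on chromosome 2 from 144142200 to 144146199, lay inside the gene between 10.9 and 14.9 kb after the start. No island reached into the 10 kb window centred on the Ovol2 start, while islands covered 99.8% of that window at Ovol1 and 30.0% at Grhl2. The promoter of Ovol2 is printed because it is the most CpG-rich of those matched, and no island reached the deposited start of its gene. The sequence is RefSeq's, GRCm38.p6 chr2:144331313-144331612, minus strand, written in the direction of transcription with 250 bases before and 50 bases from the annotated start. Capitals mark CpG dinucleotides, the substrate of DNMT3B, and, in the promoters printed further on, the E-box CACCTG on either strand, which ZEB and SNAIL repressors recognise.
Ovol2: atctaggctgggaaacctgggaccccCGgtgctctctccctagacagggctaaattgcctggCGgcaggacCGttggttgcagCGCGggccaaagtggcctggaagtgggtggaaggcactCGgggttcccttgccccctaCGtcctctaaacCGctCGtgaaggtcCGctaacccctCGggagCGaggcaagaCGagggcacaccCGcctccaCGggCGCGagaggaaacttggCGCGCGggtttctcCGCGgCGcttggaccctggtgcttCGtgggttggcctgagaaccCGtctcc
This window holds 25 CpG dinucleotides, as many as or more than 83.1% of 32851 promoters in the table, and no E-box of these letters. Its position was not set against the deposited ones, in which the Ovol2 gene has other coordinates.

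**Figure D2:**
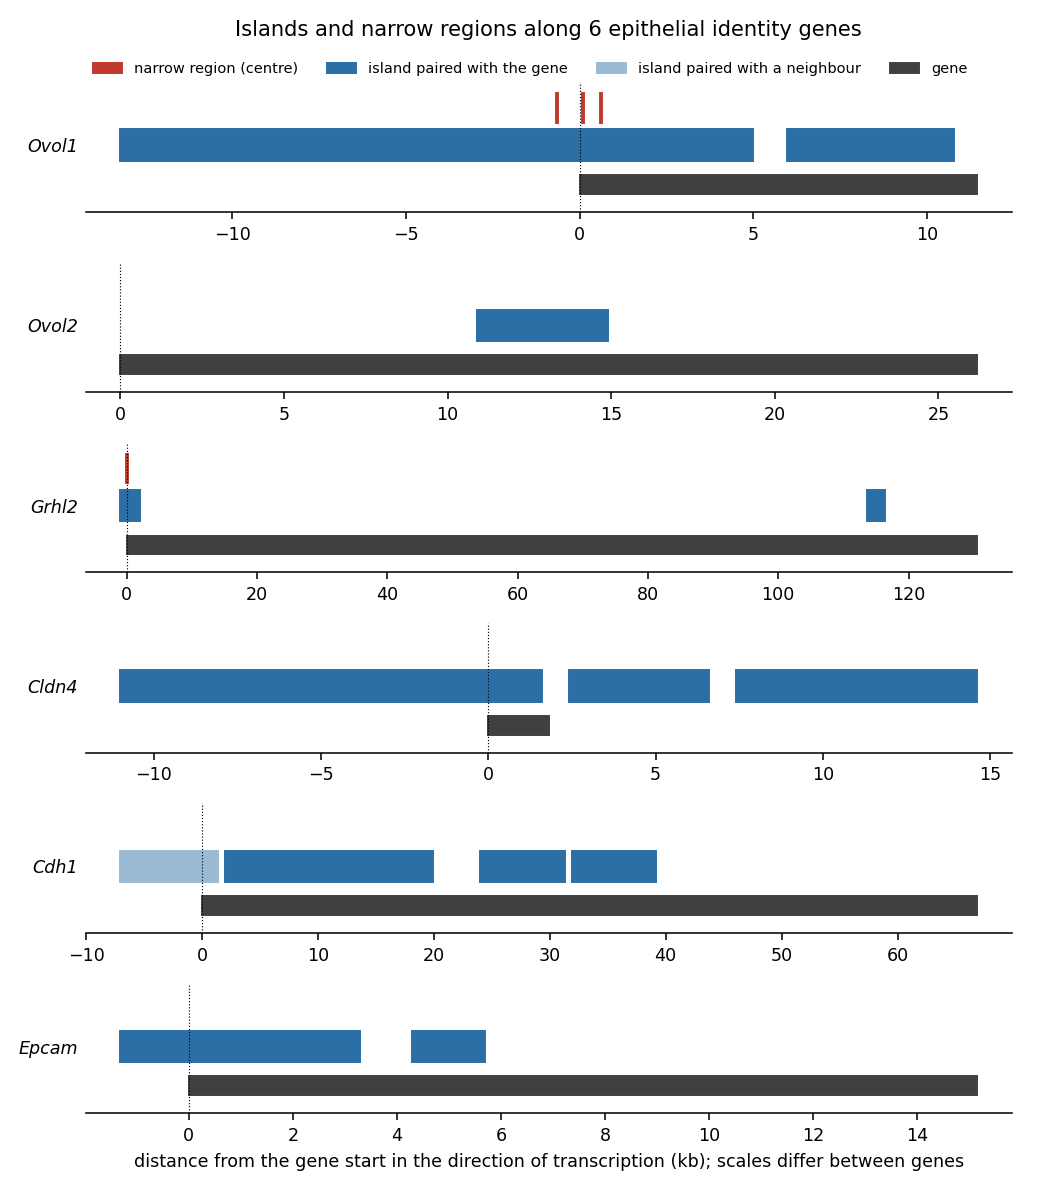
Deposited positions around the 6 epithelial genes paired with islands, as distance from the gene start in kb in the direction of transcription (x axis, scales differ between genes). Red ticks are centres of narrow regions, dark blue bars are islands paired with the gene, the light blue bar is an island paired with a neighbour of Cdh1, and grey bars are genes. Starts of Ovol1, Grhl2, Cldn4 and Epcam lie under their own islands, that of Cdh1 under the island of its neighbour, and that of Ovol2 under none.

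Cdh1 encodes E-cadherin, the adhesion molecule of adherens junctions, and it carried the greatest summed island width of the 10 genes without a narrow region. Its 3 paired islands, on the plus strand of chromosome 8, ran from 109129200 to 109147199, from 109151200 to 109158599 and from 109159200 to 109166399. Their widths were 18.0, 7.40 and 7.20 kb, 32.6 kb in all, and 93.0% of the genes paired with islands had a sum no larger. All 3 lay inside the gene, and the first began 1.93 kb after the start at 109127267.

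The start of Cdh1 itself lay under an island that the list pairs with a different gene. This island of 8400 bp, from 109120200 to 109128599, is paired with the noncoding transcript 1110028F18Rik and reached from 7.07 kb before the Cdh1 start to 1.33 kb after it. With it, islands covered 94.0% of the 10 kb window centred on the Cdh1 start and 50.7% of the gene body. Counted by pairing alone, Cdh1 would appear to have no island at its start. Over all 3771 protein-coding genes paired with islands, 37.2% had an island of any pairing over the start and 31.0% had a paired one. Cdh3, which encodes P-cadherin and neighbours Cdh1, was also paired with 3 islands and named with no narrow region.

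Epcam encodes an adhesion glycoprotein of epithelial cells, and it had 2 islands and no narrow region. The first, on the plus strand of chromosome 17 from 88034000 to 88038599, covered the gene start and was 4.60 kb wide, close to the median island. The second, from 88039600 to 88040999, was 1400 bp wide and lay 4.28 to 5.68 kb after the start. Islands covered 30.9% of the gene body and 53.2% of the 10 kb window around the start. The Epcam promoter, from a gene whose deposited start lay under an island, is RefSeq's, GRCm38.p6 chr17:87635729-87636028, plus strand.
Epcam: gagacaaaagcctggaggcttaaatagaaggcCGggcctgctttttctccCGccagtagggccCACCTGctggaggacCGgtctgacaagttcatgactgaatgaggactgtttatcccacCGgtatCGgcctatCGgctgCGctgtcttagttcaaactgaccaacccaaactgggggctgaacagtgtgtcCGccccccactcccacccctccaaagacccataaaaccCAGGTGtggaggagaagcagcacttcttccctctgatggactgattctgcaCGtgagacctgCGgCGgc
It holds 11 CpG dinucleotides, and 60.4% of promoters hold no more. It holds 2 E-boxes, one beginning 187 bases and one 19 bases before the annotated start.

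The claudins form the strands of tight junctions, and the 3 claudins among the epithelial genes each showed a different arrangement. Cldn4 had 3 islands and no narrow region, Cldn3 had a narrow region inside an island paired with another gene, and Cldn7 had a narrow region away from any island. Cldn4 lies on the minus strand of chromosome 5 from 135420992 to 135422804. An island of 12.6 kb, from 135421200 to 135433799, covered its start and reached 10995 bp upstream, and 92.7% of all islands were no wider. The others, from 135416200 to 135420399 and from 135408200 to 135415399, lay downstream of this short gene with widths of 4.20 and 7.20 kb. Islands covered 88.5% of the Cldn4 body and 92.0% of the 10 kb window around its start.

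Cldn3, the next claudin on chromosome 5, carried a narrow region at 135463000, which the list describes as lying within the gene. This position is rounded to 1000 bp and its start and end are equal. The Cldn3 gene is 1263 bp long in the RefSeq table. By the wording of the list the region lies after the start. The list gives no start for Cldn3 and the rounding is nearly as long as the gene, so the distance is not known. The region lay in an island of 13.6 kb, from 135453800 to 135467399, that the list pairs with the noncoding transcript Wbscr25. No island was paired with Cldn3. Cldn3 therefore counts as lacking an island by the pairing of the list, although its narrow region lay in one.

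Cldn7 carried a narrow region on chromosome 11 from 69779900 to 69780000, described as lying in an intron. The nearest island was 30.6 kb away. Cldn7 is 3108 bp long in the RefSeq table, and the list gives no position for its start. Its region was the only one of the 6 narrow regions of the epithelial genes outside an island. The other 5 (83.3%) overlapped an island by 1 bp or more, against 30.6% of all 1705 narrow regions, and 3 of these 5 belonged to Ovol1.

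The claudin promoters are printed together to compare genes with an island at the start (Cldn4), an island of another pairing (Cldn3) and a narrow region without an island (Cldn7). They are RefSeq's, from GRCm38.p6 chr5:134946885-134947184 on the minus strand for Cldn4, chr5:134985964-134986263 on the plus strand for Cldn3, and chr11:69964529-69964828 and chr11:69965171-69965470 on the plus strand for the upstream and downstream starts of Cldn7.
Cldn4: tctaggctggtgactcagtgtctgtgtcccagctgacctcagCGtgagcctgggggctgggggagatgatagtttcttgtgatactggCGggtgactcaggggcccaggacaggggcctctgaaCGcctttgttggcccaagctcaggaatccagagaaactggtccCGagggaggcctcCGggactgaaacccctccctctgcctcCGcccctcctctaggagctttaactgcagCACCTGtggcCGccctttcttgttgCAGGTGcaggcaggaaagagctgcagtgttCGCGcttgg
Cldn3: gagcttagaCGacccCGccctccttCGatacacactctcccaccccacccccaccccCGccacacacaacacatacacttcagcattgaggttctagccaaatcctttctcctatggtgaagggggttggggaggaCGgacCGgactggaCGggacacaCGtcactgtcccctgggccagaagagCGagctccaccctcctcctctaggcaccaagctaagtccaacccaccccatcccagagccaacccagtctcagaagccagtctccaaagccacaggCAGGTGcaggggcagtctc
Cldn7 upstream start: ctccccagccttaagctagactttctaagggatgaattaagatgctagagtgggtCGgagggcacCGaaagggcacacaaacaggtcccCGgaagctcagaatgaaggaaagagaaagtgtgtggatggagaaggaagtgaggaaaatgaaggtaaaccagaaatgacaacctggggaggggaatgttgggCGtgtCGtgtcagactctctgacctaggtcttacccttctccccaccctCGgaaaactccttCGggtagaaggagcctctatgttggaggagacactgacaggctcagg
Cldn7 downstream start: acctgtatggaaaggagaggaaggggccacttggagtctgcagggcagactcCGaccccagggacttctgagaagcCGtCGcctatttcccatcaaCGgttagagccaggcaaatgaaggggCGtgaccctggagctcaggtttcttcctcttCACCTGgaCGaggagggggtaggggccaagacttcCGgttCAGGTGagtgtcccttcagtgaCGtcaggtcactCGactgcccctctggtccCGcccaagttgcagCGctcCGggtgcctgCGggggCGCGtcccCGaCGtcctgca
Cldn4 and Cldn3 each hold 9 CpG dinucleotides, and 56.5% of promoters hold no more. The upstream start of Cldn7 holds 7 and its downstream start 17. The median over all promoters was 7, with a CpG observed-over-expected ratio of 0.38, and the ratios were 0.32 for Cldn4, 0.35 for Cldn3, 0.36 and 0.58 for Cldn7, 0.45 for Epcam and 0.77 for Ovol2. The promoters of Cldn4 and Epcam, genes with an island over the start, held fewer CpG dinucleotides than that of Ovol2, which had none there. The starts of Ovol1, Grhl2 and Cdh1 also lay under an island, but their promoters were not in the table. No relation between islands and CpG content can therefore be read from these genes.

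E-boxes lay in 4 of these 6 windows. Cldn4 has one beginning 14 bases before the annotated start and one beginning 11 bases after it, Cldn3 has one beginning 31 bases after it, and the downstream start of Cldn7 has one 97 and one 57 bases before it. Over all promoters of the table, 20.2% held this E-box on either strand. The grainyhead-like motif AACCGGTT (0.146% of promoters) and the OVOL motif CCGTTA (2.76% of promoters), searched on both strands, were in none of the 6. Of the 10 genes, 5 matched the promoter table, and Ovol1, Grhl2, Esrp1, Esrp2 and Cdh1 did not.

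**Figure D3:**
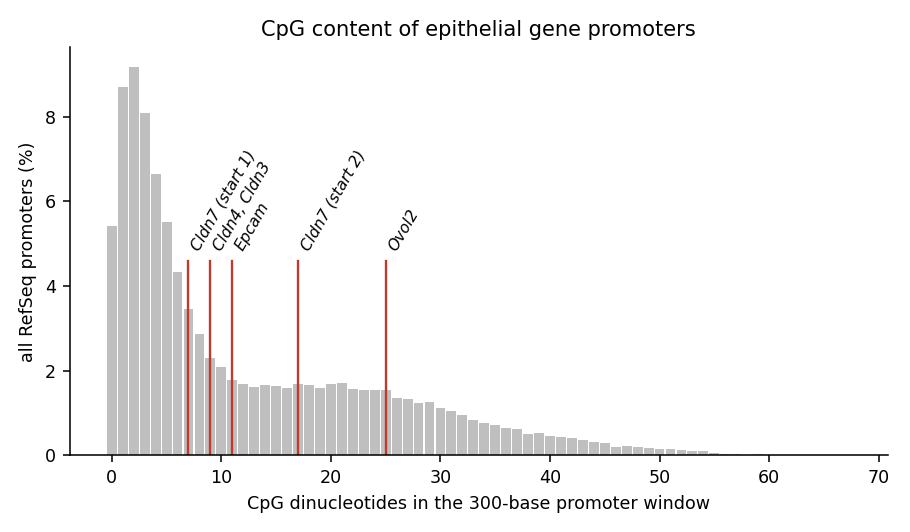
Share of all RefSeq promoters (y axis, percent) by number of CpG dinucleotides in the 300-base window (x axis), with red lines at the promoters of 5 epithelial genes. The lines run from 7 CpG dinucleotides at the upstream start of Cldn7 to 25 at Ovol2, with Cldn4 and Cldn3 together at 9.

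Esrp1 and Esrp2 are splicing regulators that impose epithelial isoforms, and neither was named in either list. At Esrp1, on chromosome 4, none of the nearest 2 protein-coding genes on each side in RefSeq order, among them Dpy19l4 and Virma, had a call. On that chromosome 1.81% of protein-coding genes had a narrow region and 10.4% an island. Esrp2, on chromosome 8, had a different setting. In RefSeq order it lies between Nfatc3 and Pla2g15, and the deposited positions leave 19.9 kb between these genes. An island of 13.4 kb, from 108653000 to 108666399 and paired with Pla2g15, covered 60.2% of that space. No narrow region lay in it. The lists give no position for Esrp2, so whether this island touches the gene could not be read from them.

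The 13 paired islands ran from 1400 to 18200 bp with a median of 4800 bp, against a median of 4800 bp over all 8242. Islands of at least 10000 bp numbered 3 of 13 (23.1%), at Ovol1, Cdh1 and Cldn4, against 13.7% of all islands. An island covered the start of the paired gene in 4 of 13 cases, against 15.4% of all islands, and these belonged to Ovol1, Grhl2, Cldn4 and Epcam. Of all protein-coding genes, 5.40% had a paired island over the start. A further 7 of the 13 lay inside the gene and 2, both of Cldn4, lay downstream, against 46.9% and 15.7% of all islands. A narrow region within 1 kb of a known start was found at Ovol1 and Grhl2, against 2.67% of all protein-coding genes. This share is a lower bound, because genes without a deposited start could count only through regions described as upstream. Among genes paired with islands, the share was 44.6% of the 251 ending within 1 kb of their GRCm38 end, Ovol1 included. It was 8.69% of the other 3520, Grhl2 included.

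**Figure D4:**
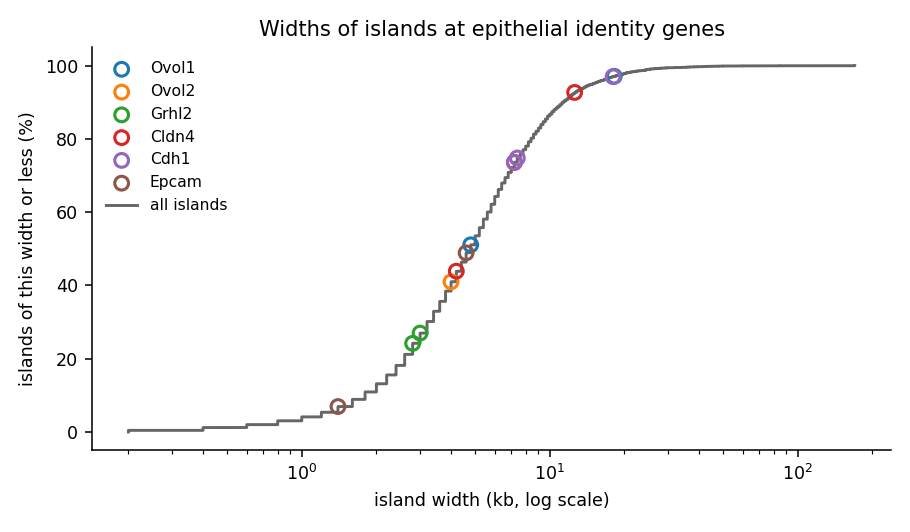
Cumulative share of all SICER islands (y axis, percent) by island width in kb (x axis, log scale), as a grey line, with the 13 islands of 6 epithelial genes as open circles coloured by gene. The islands of Ovol1 at 18.2 kb and Cdh1 at 18.0 kb sit near the top of the curve, and that of Epcam at 1400 bp near its foot.

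The chromosomes of these genes differ in how often they carry calls. Of the genes on chromosome 19, where Ovol1 lies, 14.3% had a narrow region, against 6.21% of all genes. On chromosome 8, which holds Cdh1 and Esrp2, 35.5% of genes had an island, and on chromosome 5, which holds Cldn3 and Cldn4, 27.7% did. Chromosomes 2, 15, 17 and 19, with Ovol2, Grhl2, Epcam and Ovol1, had islands at 20.2%, 20.7%, 22.6% and 26.4% of their genes. Of the 8 chromosomes that hold epithelial genes, chromosome 4 was the one below the 17.4% of all genes. How far the counts of the epithelial genes follow from their chromosomes was not tested.

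Further lists were counted in the same way. Of 50 junction, keratin and polarity genes, 21 had an island (42.0%, against 17.4% of all genes) and 8 a narrow region (16.0%, against 6.21%), with 5 holding both calls. Jup, which encodes the junction plaque protein plakoglobin, had a narrow region at 100259000 on chromosome 11 and 4 islands summing to 40.6 kb. Ppl, which encodes the desmosomal linker periplakin, had narrow regions on either side of its start on chromosome 16, from 5132360 to 5132380 and from 5132710 to 5132820, both in an island. Evpl, which encodes envoplakin, had 3 narrow regions, all contained within the gene and 2 of them in an island. The 2 in an island both begin at 116083000, a position rounded to 1000 bp, so they may not be separate sites. The polarity gene Llgl2 had 2 narrow regions, one of them 371 bp upstream and in an island, and Nectin1, a junction adhesion gene, had an intronic one outside islands. Mpp5, a polarity scaffold also called Pals1, had one 134 bp upstream and no island. Both positions of the upstream regions are rounded, to 1000 bp at Llgl2 and 100 bp at Mpp5. The side of the start is therefore uncertain at Llgl2, while at Mpp5 the distance is larger than the rounding.

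Of 16 other epithelial transcription and splicing factors, Tfap2c was the one with a narrow region (6.25%, against 6.21% of all genes), a share near that of all genes. Islands were paired with 5 of the 16 (31.2%, against 17.4% of all genes), among them Grhl3 and Elf3. In the claudin family, 4 of 23 genes had a narrow region (17.4%, against 6.21% of all genes) and 6 an island (26.1%, against 17.4% of all genes), Cldn3, Cldn4 and Cldn7 included. Cldn5, the claudin of endothelial junctions, was the one claudin with both calls by pairing, though its narrow region lay outside its island. None of the 6 miRNA genes of the miR-200 and miR-205 families, which restrain Zeb1 and Zeb2, was named in either list. The shares over all genes cover protein-coding genes only, and whether either list names miRNA genes at all was not examined. The absence of these 6 therefore says nothing about enrichment there.

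Of 25 mesenchymal factors and markers, 4 had a narrow region (16.0%, against 6.21% of all genes) and 7 an island (28.0%, against 17.4% of all genes). Snai1, a repressor of Cdh1, had an intronic narrow region at 167364000 on chromosome 2 and a separate island of 2.20 kb. Foxc2, a mesenchymal transcription factor, had a narrow region 70 bp upstream at a position rounded to 1000 bp. Mmp9, which encodes a gelatinase, had a narrow region 4650 bp downstream that lay in an island. Zeb1, Zeb2 and Twist1 were named in neither list. The shares of all lists other than the miRNA genes are drawn in the bar plot by gene list.

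Markers of lung cells were looked up because lung epithelium also expresses Cdh1 and Epcam. Of 14 lung epithelium markers, none had a narrow region and 2, Sftpb and Foxj1, had an island (14.3%, against 17.4% of all genes). None of 9 immune cell markers had either call, and 2 of 4 endothelium markers, Pecam1 and Cdh5, had an island, against 17.4% of all genes. The part of host lung cells in the calls at the epithelial genes was not tested.

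**Figure D5:**
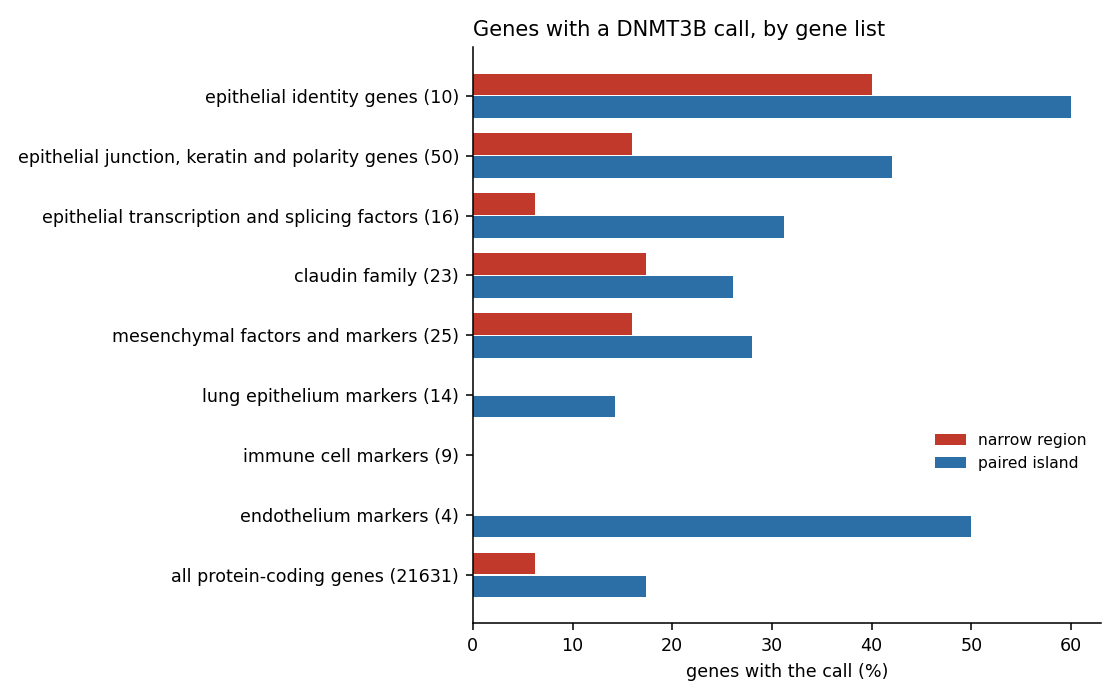
Share of genes (x axis, percent) with a narrow region (red) and with a paired island (blue) in each gene list (y axis, number of genes in parentheses). The 10 epithelial identity genes carry a narrow region in 4 and an island in 6 cases, against 6.21% and 17.4% for all protein-coding genes at the bottom.

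Genes with the same numbers of calls were common for some epithelial genes and rare for others. Besides Ovol1, 4 protein-coding genes had 3 narrow regions and 2 islands. The closest in summed island width to Ovol1, at 23.0 kb, were Ubald1 (20.6 kb), Irs2 (16.0 kb) and Otop2 (6.20 kb). Besides Grhl2, 88 genes had 1 narrow region and 2 islands, and Dll4, Rpl19 and Zfp12 had the same summed width of 5.80 kb. The pattern of Cldn3 and of Cldn7, 1 narrow region with no paired island, was shared by 684 other genes each.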

How the data were processed

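DNMT3B ChIP (2 libraries) and input (2 libraries) of 4T1 lung metastases gave 2 lists that cover all libraries. The submitters' processing notes name Bowtie2 (given as 2.10) for alignment, MACS (given as 1.4) and SICER for calling, and mm10 as the build. The values are base positions and distances in bp, deposited without counts or scores. The MACS list is itself named for MACS2, with the label p05, and the SICER list carries the label top20. What these labels select, and any pooling of libraries, is not given in the sources used, so a gene without an island may have one that the list leaves out.

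The 4304 MACS lines were reduced to 1705 distinct regions. Their positions are rounded to 10, 100 or 1000 bp by size, and 2 unknown ends were set to the start. What repeated lines stand for is not stated. Genes were matched to RefSeq by transcript, symbol or unique synonym. A gene had a call if either gene column of the MACS list, or the pairing of the SICER list, named it. Islands were paired with a single gene each, and gene starts were those of the SICER list. Positions are as deposited. Of the protein-coding genes paired with islands, 93.3% ended over 1 kb from their GRCm38 end, by 399 kb at Epcam and 2520 kb at Cdh1. The gene positions are therefore not those of mm10, the build named in the notes, and which build they follow was not determined. A region lay in an island from 1 shared bp. All 10 genes were named. From the other lists, genes with both calls or with a narrow region within 1 kb of the start were named, and genes most like an epithelial gene had the same numbers of calls and the closest summed island width. Zeb1, Zeb2, Twist1, Cdh3, other neighbours, Tfap2c, the island genes beside it and the marker genes were added after their values were seen. The genes and lists were chosen with earlier results of these data known. Python 3.11.15 with pandas 2.3.3 was used, and the search functions were tested on simulated data.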

Additional observations from a re-analysis of the deposited data

How the results depend on the processing

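Of 19 alternatives, 14 gave a count within 1.5 times the reported one. With islands of at least 5000 bp only, 3 of the 10 genes had an island in place of 6 (10.6% of all genes), and 1 had both calls in place of 2 (1.75% of all genes). With every line of the MACS list counted, 15 of the 16 lines of the epithelial genes lay in an island, against 40.1% of all lines, in place of 5 regions. The next alternatives were chosen after seeing the data. With positions rounded to at most 10 bp, 1 gene, Ovol1, had a narrow region in place of 4 (0.948% of all genes). Rounding follows the size of the position, so this setting keeps only regions at low positions on a chromosome. The regions of Grhl2, Cldn3 and Cldn7, rounded to 100 or 1000 bp, dropped out by position, which says nothing about their calls. Without Ovol1, 2 of 3 narrow regions lay in islands in place of 5. With islands of any pairing, 7 genes had an island and 3 had both calls, with no share over all genes because gene positions are known only for genes paired with islands. No paired analysis was possible because neither list gives values by library, which also kept any library from being left out. The depth is unknown, so a gene without a call cannot be told apart from one below the authors' threshold.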
